A study of Mus musculus with 6 samples.

Results

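The Ms4a family was followed in liver non-parenchymal cells of mice with nonalcoholic steatohepatitis (NASH), a fatty liver disease with inflammation and scarring. The members were 9 genes chosen by symbol, Ms4a1, Ms4a2, Ms4a4a, Ms4a4b, Ms4a4c, Ms4a6b, Ms4a6c, Ms4a6d and Ms4a7, and 8 of them had a row among the 19349 genes of the count tables. Ms4a2 had none and was not analysed here. Male C57BL/6J mice, bought at an age of 8 weeks, received a high-fat diet for 24 weeks, and in the last 8 weeks they were given by gavage either vehicle (DMSO) or ginkgetin, a plant biflavone, at 10 mg/kg/day. Each group had 3 libraries made with the 10x Genomics droplet system, and no mice on a normal diet were among them. Both groups received the diet, and the labels do not say whether a library came from 1 mouse. The question put to these data was how much of each Ms4a gene the liver's B, T, macrophage, monocyte and dendritic cells held, and whether ginkgetin-treated mice differed from vehicle-treated mice.

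The libraries held 33168 cell barcodes with between 13128697 and 61796882 unique molecular identifiers (UMIs, 1 per captured RNA molecule) each, and 27544 cells were kept. Replicate 3 of both groups was more deeply read, with a median of 8412 and 6262 UMIs per kept cell against 2483 to 4365 in the other 4 libraries, and it used a different set of cell barcodes and gene symbols, so 679 genes found in 1 kind of table were left out of the tests. Pairs of libraries shared 0 to 85 barcodes. The cells formed 38 clusters, of which 31 could be named from markers of 18 cell types (none of them an Ms4a gene), and the name ends in "-like" because it rests on these markers alone. For each library the UMIs of all cells of a class were added up, and a level is the gene's share of those UMIs, written as CPM (UMIs per 10 to the power of 6).

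MS4A proteins cross the cell membrane several times and sit at the surface or in inner membranes, often beside a receptor. Ms4a1 encodes CD20, the B cell surface protein targeted by therapeutic antibodies in lymphoma, and Ms4a2 encodes the beta chain of the high-affinity IgE receptor of mast cells and basophils. Ms4a4b is a T cell member that associates with the costimulatory receptor GITR, whereas Ms4a4a and Ms4a7 are known mainly from macrophages and microglia. In the liver, macrophages include the resident Kupffer cells, which line the sinusoids, and macrophages that enter as monocytes and take up lipid in fatty liver disease.

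All 9 genes lie on 1 stretch of mouse chromosome 19, from base 11249675 to base 11623719 (GRCm38, GENCODE vM21), a span of 374.045 kb that holds 12 genes of the family. Ms4a1 is at one end (11249675 to 11266241, minus strand), followed by Ms4a7 (11321039 to 11336146, minus strand). The next 5 members all lie on the plus strand in the order Ms4a4a, Ms4a4c, Ms4a4b, Ms4a6c and Ms4a6b. Ms4a4b (11443553 to 11467055) ends 2.311 kb before Ms4a6c (11469366 to 11482192) starts. Ms4a6d (11586604 to 11604849) and Ms4a2 (11615523 to 11623719) close the stretch on the minus strand. Ms4a4b was highest in NK and T cells and Ms4a6c, the next gene, in monocytes, whereas the neighbours Ms4a4a and Ms4a4c were both highest in classical monocytes.

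The bases before the start sites of the members were compared with each other. RefSeq start sites (GRCm38.p6) were at hand for 7 of the 9 members, without Ms4a1 and Ms4a6d. Ms4a7 had a second start site, which was left out of this comparison. In 250 bases before the start, only the pairs Ms4a6c with Ms4a6b and Ms4a4c with Ms4a4b shared a run of more than 9 bases, and these 4 sequences are printed for that reason, 5′ to 3′ on the plus strand with the shared run in capitals. The run of the first pair was 48 bases long and that of the second pair 20 bases long, and each was found in 2 of 32851 mouse windows of that length, those of the pair itself.
Ms4a6c, chr19:11469118-11469367: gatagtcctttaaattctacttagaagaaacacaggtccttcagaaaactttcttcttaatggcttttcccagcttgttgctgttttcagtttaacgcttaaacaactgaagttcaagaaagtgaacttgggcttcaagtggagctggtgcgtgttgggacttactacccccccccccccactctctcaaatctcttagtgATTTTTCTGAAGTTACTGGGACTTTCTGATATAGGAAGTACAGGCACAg
Ms4a6b, chr19:11518309-11518558: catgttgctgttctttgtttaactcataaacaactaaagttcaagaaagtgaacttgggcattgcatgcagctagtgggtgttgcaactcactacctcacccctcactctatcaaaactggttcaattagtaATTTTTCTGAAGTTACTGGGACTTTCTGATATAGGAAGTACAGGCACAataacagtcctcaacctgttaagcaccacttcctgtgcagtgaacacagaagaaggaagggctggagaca
Ms4a4c, chr19:11407411-11407660: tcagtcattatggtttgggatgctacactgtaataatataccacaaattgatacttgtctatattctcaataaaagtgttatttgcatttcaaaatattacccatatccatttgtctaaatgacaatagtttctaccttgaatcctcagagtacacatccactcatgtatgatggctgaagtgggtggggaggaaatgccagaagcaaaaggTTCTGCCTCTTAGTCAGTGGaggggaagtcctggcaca
Ms4a4b, chr19:11443308-11443557: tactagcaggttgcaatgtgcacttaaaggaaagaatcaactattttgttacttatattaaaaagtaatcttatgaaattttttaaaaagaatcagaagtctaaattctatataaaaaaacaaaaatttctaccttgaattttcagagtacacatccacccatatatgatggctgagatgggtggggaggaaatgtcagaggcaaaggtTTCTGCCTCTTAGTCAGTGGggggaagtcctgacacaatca

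The shared run began 49 bases before the start of Ms4a6c and 118 bases before that of Ms4a6b, so it lies at another distance in the 2 genes, and over the best ungapped alignment 109 of 177 bases were the same. In Ms4a4c and Ms4a4b it began 38 and 41 bases before the start, and 142 of 247 bases were the same. The motifs searched on both strands were GAGGAA (the core bound by PU.1, a factor of myeloid and B cells), ATGCAAAT (octamer of B cell factors), TGTGGT (RUNX), TTGCNNAA (C/EBP) and the interferon-stimulated response element. GAGGAA stood 61 bases before the start of Ms4a4c and 64 bases before that of Ms4a4b, and 23.25% of all windows hold it. ATGCAAAT stood 170 bases and TGTGGT 211 bases before the start of Ms4a4c alone, and 1.601% and 14.05% of all windows hold them. No other match was found in the windows of the 7 members, nor in that of a second start site of Ms4a7. These are matches of letters and not known binding sites. Such close relatives can also share reads: of the 50-base windows in its transcripts, Ms4a4c shares 7.728% with Ms4a4b and Ms4a6c shares 5.847% with Ms4a6b, and how the counting treated reads that fit several genes is not given in the sources used here.

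Levels by cell class are a description, since the cells were clustered on all genes together, and they carry no test. Ms4a1 was almost confined to B cell-like cells, where it reached 561 to 1129 CPM over the 6 libraries. Plasma cell-like cells, the antibody-secreting descendants of B cells, held 19.6 to 44.0 CPM, and the class next in order, mature dendritic-like cells, had a mean of 13.4 CPM. Of all Ms4a1 UMIs, 89.5% in vehicle and 90.3% in ginkgetin libraries were in B cell-like cells. Ms4a1 was not among the markers that named them.

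Ms4a4b was at 385 to 1485 CPM in NK cell-like and 404 to 1228 CPM in T cell-like cells, and these ranges overlapped. The class next in order was B cell-like cells with 16.2 to 46.3 CPM. In T cell-like cells Ms4a4b was split by replicate rather than by group, with 1228 and 1063 CPM in replicate 3 of vehicle and ginkgetin and 404 to 541 CPM in the other 4 libraries. Among the T cell-like clusters it ranged from 459 CPM in a cluster led by Cd4 and Icos to 1405 CPM in a cluster led by Trbc2 and Trbc1. The first of these held 2 vehicle and 0 ginkgetin cells of replicate 3, and the second held cells of replicate 3 alone. Kind of T cell and replicate thus cannot be told apart in this range. A further cluster of 308 cells, led by Klra9 and Gzmb and found in replicates 1 and 2 alone, passed as T cell-like on 3 of 7 markers and held 319 CPM. Of these 7 markers, 5 were among the genes kept for the tests. Of the Ms4a4b UMIs, 36.0% in vehicle and 31.9% in ginkgetin libraries were in clusters without a name, most of which lay nearest to T cells by their markers.

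Ms4a6b was the member that both T cells and monocytes held, with 281 to 571 CPM in T cell-like and 194 to 468 CPM in classical monocyte-like cells, ranges that overlapped. Type 2 dendritic-like cells followed with 107 to 229 CPM and macrophage-like cells with 68.5 to 143 CPM. NK cell-like cells, which had as much Ms4a4b as T cells, held 78.8 to 138 CPM of Ms4a6b, below every T cell-like library. Its high classes thus came from both the lymphoid and the myeloid cells.

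Ms4a4c, Ms4a6c and Ms4a6d were highest in monocytes among classes found in several libraries. Ms4a4c held 165 to 518 CPM in classical monocyte-like, 98.0 to 288 CPM in type 2 dendritic-like and 78.2 to 217 CPM in B cell-like cells, and neighbours in this order overlapped. Ms4a6c held 560 to 1179 CPM in classical monocyte-like, 325 to 719 CPM in type 2 dendritic-like and 308 to 455 CPM in macrophage-like cells. It fell off within the dendritic cells, with 41.9 to 147 CPM in type 1 dendritic-like cells, below every type 2 library. Ms4a6d held 47.7 to 321 CPM in classical monocyte-like and 64.7 to 217 CPM in macrophage-like cells.

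Ms4a7 was the macrophage member, at 125 to 539 CPM in macrophage-like and 8.81 to 71.7 CPM in classical monocyte-like cells. Macrophage-like cells held 91.4% of its UMIs in vehicle and 85.2% in ginkgetin libraries. A cluster of 94 patrolling monocyte-like cells, 89 of them from vehicle replicate 1, held 399 CPM of Ms4a7 and 343 CPM of Ms4a6d in that library, and no other library had enough of these cells for a value. Ms4a4a was scarce, with 166 UMIs in vehicle and 12 in ginkgetin libraries, and 60.2% and 58.3% of them were in classical monocyte-like cells.

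**Figure D1:**
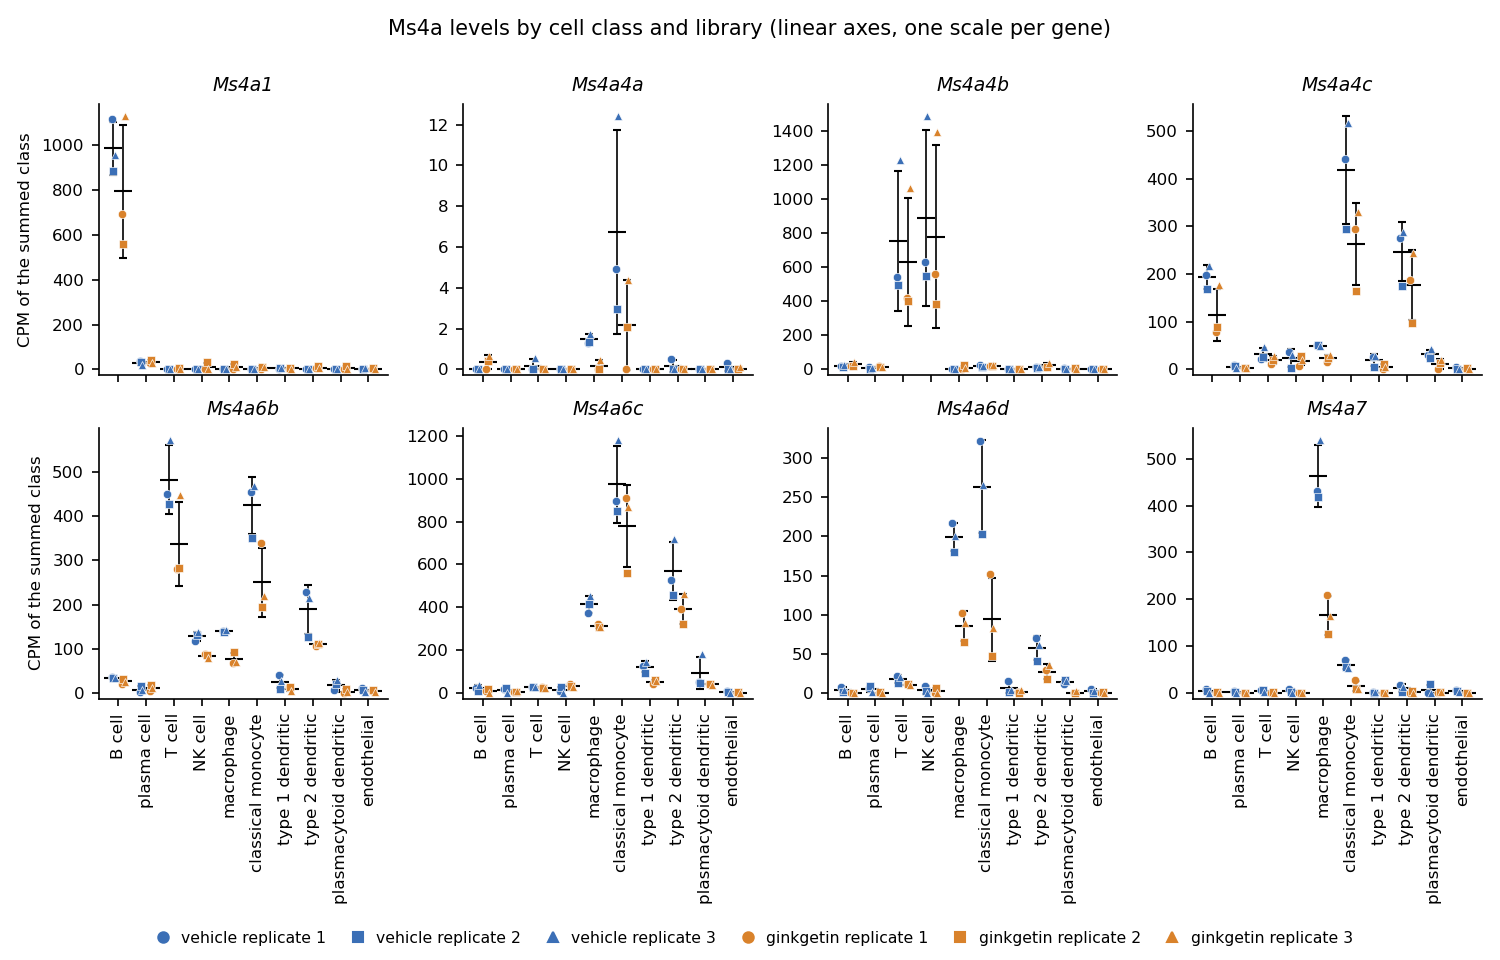
CPM of the 8 Ms4a genes (vertical axes, linear, a scale for each gene) in 10 cell classes (horizontal axis), with 1 point per library and bars for mean ± SD of the 3 libraries of a group. Ms4a1 stands out in B cells, Ms4a4b in T and NK cells and Ms4a7 in macrophages, while Ms4a6b is high in both T cells and classical monocytes.

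Across 82 sums of a library and a class, the genes whose level ran most closely with each member were named by Pearson's r of log values over 8429 genes, as a description only, because sums of 1 library share depth and sums of 1 class share cells. Ms4a7 ran with C1qb (0.895) and C1qc (0.891), subunits of complement C1q made by macrophages, and with Fcgr1 (0.874), an Fc receptor. Ms4a6d ran with Clec4a2 (0.881) and Fcgr1 (0.875), and Ms4a6c with Cd300a (0.886) and the chemokine Ccl6 (0.883). Ms4a1 ran with Fcer2a (0.833), the low-affinity IgE receptor CD23 of B cells, Chst3 (0.833) and Pax5 (0.832), the B cell transcription factor. Ms4a4b ran with the T cell kinase Txk (0.870) and the adaptor Sh2d2a (0.869), Ms4a4a with Chil3 (0.768), Ms4a4c with Slfn2 (0.825) and Ms4a6b with Fam105a (0.773). C1qb, C1qc, Pax5 and Chil3 are also among the markers that named the classes. Within the family the closest pair was Ms4a6c and Ms4a6d (0.836), then Ms4a6d and Ms4a7 (0.759), and the least alike was Ms4a1 with Ms4a6d (-0.152).

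In macrophage-like cells, 4 Ms4a genes fell in ginkgetin-treated mice: Ms4a7, Ms4a6d, Ms4a4c and Ms4a6b. A gene was called when its edgeR adjusted p, taken over all genes tested in the class, was under 0.05 and its fold over 2. Of 9930 genes tested, 1329 were called (13.4%), and 6.56% were called lower, against 4 of the 6 Ms4a genes tested. When cells were named one by one from their own markers instead of by cluster, Ms4a7 (-1.89, edgeR adjusted p = 0.0122) and Ms4a6d (-1.52, edgeR adjusted p = 0.0252) were still called, while Ms4a6b (-1.08, edgeR adjusted p = 0.0655) and Ms4a4c (-0.99, edgeR adjusted p = 0.177) were not. The median log2 fold change was -1.42 over these 6 genes and 0.02 over all genes tested.

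Ms4a7 was at 432, 419 and 539 CPM in the vehicle libraries and at 209, 125 and 164 CPM in the ginkgetin libraries. The groups did not overlap, where 42.3% of all genes tested did not overlap in one direction or the other. The means were 463 ± 66.1 against 166 ± 41.8 CPM (SD, n = 3 each), and the log2 fold change was -1.94 (SE 0.28, edgeR adjusted p = 0.00577).

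Ms4a6d was at 217, 180 and 201 CPM with vehicle and at 103, 64.7 and 89.7 CPM with ginkgetin, again without overlap, and its log2 change was -1.70 (SE 0.26, edgeR adjusted p = 0.0061). Ms4a6b was at 140, 138 and 143 CPM and at 68.5, 93.5 and 69.6 CPM. The vehicle libraries of Ms4a6b lay close together and all above the ginkgetin libraries, with a log2 change of -1.33 (SE 0.23, edgeR adjusted p = 0.0081). Ms4a4c, the lowest of the 4, was at 50.8, 50.2 and 48.7 CPM and at 15.6, 24.5 and 30.2 CPM, a log2 change of -1.51 (SE 0.21, edgeR adjusted p = 0.00539).

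Ms4a6c was at 373, 414 and 455 CPM with vehicle and at 324, 311 and 308 CPM with ginkgetin. Its groups did not overlap either, but its log2 change, -0.85 (SE 0.22, edgeR adjusted p = 0.0308), was under the fold of 2, so it was not called. All 5 of the genes with at least 20 CPM in 1 group were lower in all 3 ginkgetin libraries, against 8.15% of all genes tested. Ms4a4b, at 2.08 to 2.86 CPM in vehicle and 0, 23.0 and 5.76 CPM in ginkgetin libraries, gave a log2 fold change of 1.51 (edgeR adjusted p = 0.172).

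**Figure D2:**
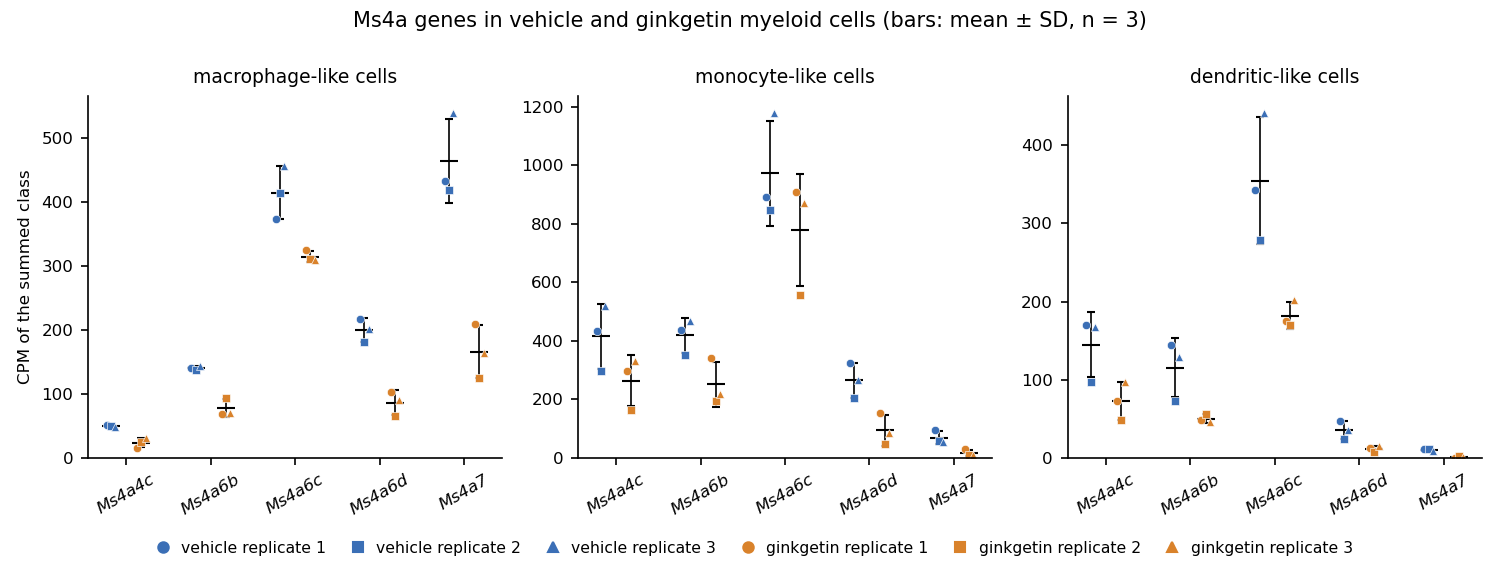
CPM (vertical axes, linear) of 5 Ms4a genes in the summed macrophage-like, monocyte-like and dendritic-like cells, with 1 point per library and bars for mean ± SD of 3 libraries. In macrophage-like cells every ginkgetin point of these genes lies below every vehicle point; in monocyte-like cells this holds for Ms4a6b, Ms4a6d and Ms4a7.

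Several other values moved with this result. Macrophage-like cells were fewer and shallower with ginkgetin (102, 246 and 550 cells, median 2216.5 UMIs) than with vehicle (1207, 717 and 1104 cells, median 10681 UMIs). They also came from different clusters: most vehicle cells were in 2 clusters led by Fabp7 and Pf4 in replicates 1 and 2 and in 2 led by Cd300c2 and Mmp12 in replicate 3, and most ginkgetin cells were in 1 cluster led by Marco and C6. Markers of other cells also differed between the sums. All 8 endothelial markers were called higher, and their summed level was 188 to 215 CPM with vehicle and 925 to 1694 CPM with ginkgetin. Of the 7 B cell markers 5 were called higher, with 81.9 to 86.2 CPM against 162 to 298 CPM in sum, and 1 each of the T cell, NK cell and stellate cell markers was called higher. Patrolling monocyte markers summed to 218 to 242 CPM with vehicle and 517 to 596 CPM with ginkgetin, with 1 of 6 called higher. The sums of 2 lists were lower with ginkgetin without overlap, type 2 dendritic markers at 102 to 201 against 57.0 to 84.9 CPM (2 of 6 called lower) and plasmacytoid dendritic markers at 645 to 755 against 456 to 548 CPM (none called). Plasma cell markers summed to 162 to 264 CPM with vehicle and 370 to 902 CPM with ginkgetin while 1 of them was called lower, type 1 dendritic markers to 261 to 295 and 329 to 474 CPM with none called, and 1 classical monocyte marker was called lower. Of the 9 macrophage markers 2 were called lower, with 19898 to 22578 CPM against 16429 to 21279 CPM. Marker sums are in CPM of the 18670 genes found in all tables. The part of these in the fall of the Ms4a genes was not tested.

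The scaling mattered in this class. The fit used TMM factors, which assume that most genes do not differ, and it called 678 genes higher and 651 lower. With library totals alone the median of all genes moved to 0.54 on the log2 scale and the split to 1991 higher and 198 lower. Then Ms4a7 (-1.49, edgeR adjusted p = 0.00561) and Ms4a6d (-1.22, edgeR adjusted p = 0.00832) were still called, while Ms4a6b (-0.85) and Ms4a4c (-0.98) kept an edgeR adjusted p of 0.0203 and 0.0222 but fell short of the fold of 2.

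The macrophage-like clusters were split by markers into Kupffer-like cells (Clec4f, Vsig4, Cd5l, Timd4, Marco, Cd163) and lipid-associated-like cells (Trem2, Gpnmb, Spp1, Cd9, Fabp5, Lgals3), the macrophages that take up lipid. The lower Ms4a7 level was found in Kupffer-like cells, at 230, 287 and 249 CPM with vehicle and 117, 66.5 and 72.9 CPM with ginkgetin. In lipid-associated-like cells it was at 715, 540 and 718 CPM and at 564, 245 and 652 CPM, and the groups overlapped. The Kupffer-like cells of the groups came from different clusters: all but 23 of 1413 vehicle cells were in the clusters led by Fabp7 and Mmp12, and 779 of 801 ginkgetin cells in the one led by Marco. The cluster led by Fabp7 held an equal share of Kupffer and lipid-associated markers. Every vehicle library held more Ms4a7 in its lipid-associated-like than in its Kupffer-like cells.

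Fitted on Kupffer-like cells alone, Ms4a7 (-2.04, SE 0.32, edgeR adjusted p = 0.00646), Ms4a6d (-1.94, SE 0.27, edgeR adjusted p = 0.00369) and Ms4a6b (-1.66, SE 0.31, edgeR adjusted p = 0.00977) fell, and Ms4a4c did not pass (-1.39, SE 0.43, edgeR adjusted p = 0.0555), where 12.7% of all genes tested were called. Fitted on lipid-associated-like cells alone, where 1.69% of all genes were called, none of the members was, with Ms4a7 at -0.77 (SE 0.32, edgeR adjusted p = 0.235) and Ms4a6d at -0.86 (SE 0.29, edgeR adjusted p = 0.157). Ms4a4c was at -0.48 (SE 0.28, edgeR adjusted p = 0.381) and Ms4a6b at -0.16 (SE 0.25, edgeR adjusted p = 0.8) there. Ginkgetin libraries had only 13, 47 and 37 lipid-associated-like cells against 553, 335 and 727 with vehicle. The difference between these 2 kinds of macrophage was not tested.

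**Figure D3:**
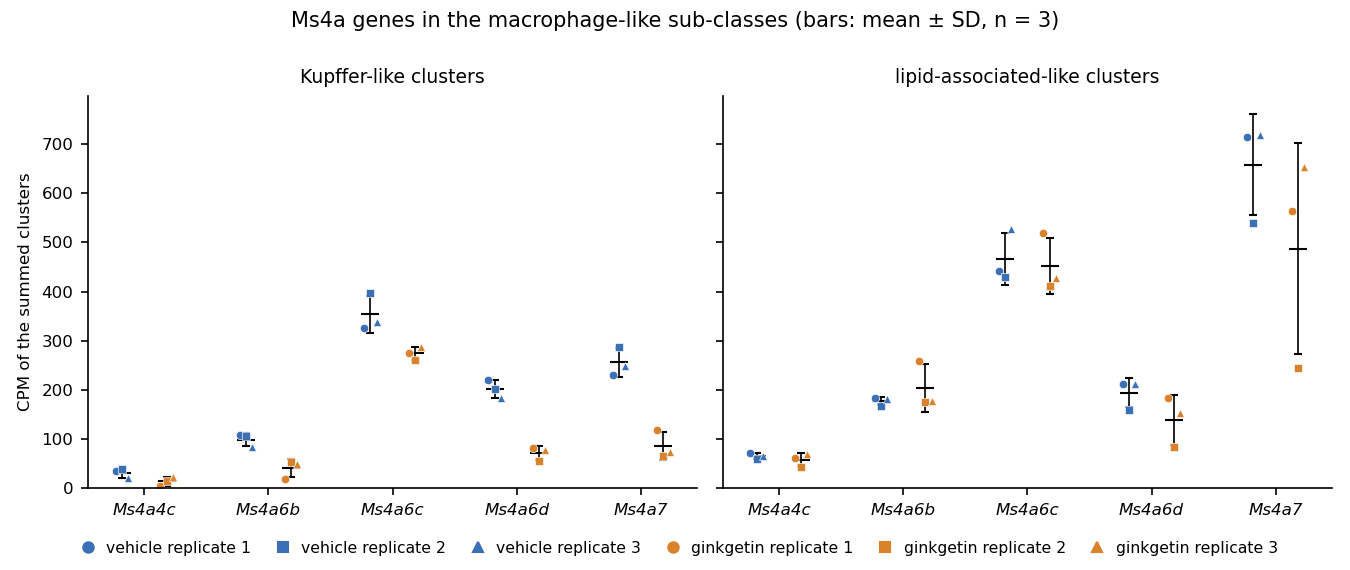
CPM (vertical axis, linear, same scale) of 5 Ms4a genes in Kupffer-like and lipid-associated-like clusters, with 1 point per library and bars for mean ± SD of 3 libraries. The ginkgetin points of Ms4a7 and Ms4a6d lie below all vehicle points in Kupffer-like cells and overlap with them in lipid-associated-like cells.

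In monocyte-like cells, the circulating precursors of many macrophages, edgeR without a replicate block called no Ms4a gene and 0.0246% of the 8129 genes tested (1270 had an unadjusted p under 0.05), while DESeq2 called 1.69% of these genes, 2 of them Ms4a genes. Ms4a7 was at 93.6, 58.1 and 55.3 CPM with vehicle and at 28.7, 9.28 and 8.81 CPM with ginkgetin. Ms4a6d was at 323, 204 and 266 CPM and at 152, 47.4 and 83.6 CPM. Neither gene overlapped between the groups, as 18.8% of all genes tested did not. The class joins classical and patrolling monocyte-like cells, and 89 of the 94 patrolling cells came from vehicle replicate 1. In classical monocyte-like cells alone Ms4a7 was at 8.81 to 71.7 CPM over the 6 libraries. There edgeR called 0.0247% of all genes and no Ms4a gene.

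The log2 change of Ms4a7 was -2.33 (SE 0.51, edgeR adjusted p = 0.119) and that of Ms4a6d -1.55 (SE 0.44, edgeR adjusted p = 0.176). With the replicate number as a block, both were called lower, Ms4a7 at -2.35 (edgeR adjusted p = 0.00851) and Ms4a6d at -1.69 (edgeR adjusted p = 0.0117), and that fit called 246 genes (3.03%). Macrophage markers moved alongside, with a summed level of 2221 to 2961 CPM in vehicle and 1160 to 2107 CPM in ginkgetin monocyte-like sums, and endothelial markers were at 40.9 to 71.7 and 124 to 862 CPM, and their part was not tested.

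Ms4a6c, the most monocyte-like member by its level, was at 891, 847 and 1178 CPM with vehicle and at 909, 557 and 870 CPM with ginkgetin, and these overlapped (log2 fold change -0.39, SE 0.30, edgeR adjusted p = 0.563). Ms4a4c, at 295 to 517 CPM and 164 to 329 CPM, overlapped too (-0.74, SE 0.31, edgeR adjusted p = 0.308). Ms4a6b did not overlap, at 438, 350 and 467 CPM and at 340, 193 and 218 CPM (-0.78, SE 0.33, edgeR adjusted p = 0.306).

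In dendritic-like cells, which present antigen to T cells, Ms4a6c was at 343, 279 and 441 CPM with vehicle and at 175, 170 and 202 CPM with ginkgetin. Ms4a6d was at 47.1, 24.1 and 35.3 CPM and at 12.2, 7.41 and 15.03 CPM, and Ms4a6b at 145, 72.3 and 129 CPM and at 48.8, 56.2 and 45.6 CPM. These 3 did not overlap between the groups, as 21.2% of the 8011 genes tested did not, whereas Ms4a4c did by a narrow margin, with a lowest vehicle library of 96.4 and a highest ginkgetin library of 97.0 CPM.

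Without a block no gene at all was called in this class (0% of all genes, with 1476 at an unadjusted p under 0.05 and 120 called by DESeq2), and Ms4a6d stood at -1.65 (SE 0.32, edgeR adjusted p = 0.0921), Ms4a6b at -1.16 (SE 0.29, edgeR adjusted p = 0.112) and Ms4a6c at -0.93 (SE 0.23, edgeR adjusted p = 0.112). With the replicate block 294 genes (3.67%) were called, among them Ms4a6d (-1.58, edgeR adjusted p = 0.00952), Ms4a6b (-1.14, edgeR adjusted p = 0.0278) and Ms4a7 (-3.23, edgeR adjusted p = 0.0161). Ms4a7 was low here, at 8.96 to 11.1 CPM with vehicle and 0 to 2.47 CPM with ginkgetin, under the 20 CPM set for a comparison. Its ginkgetin UMIs were 1 in type 1, 4 in type 2 and 0 in mature dendritic-like cells, so its fold is imprecise. The macrophage markers in these sums went from 325 to 489 CPM to between 102 and 238 CPM, and the endothelial markers from 108 to 133 CPM to between 282 and 926 CPM, with a part that was not tested.

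The make-up of the dendritic-like cells moved as well, with 243, 99 and 179 type 2 cells beside 89, 49 and 74 type 1 cells in vehicle, and 50, 109 and 55 beside 51, 88 and 48 in ginkgetin libraries. Mature dendritic-like cells numbered 38, 24 and 40 with vehicle and 3, 9 and 21 with ginkgetin. Type 2 cells held more of these genes than type 1 cells. Within type 2 cells alone Ms4a6d was at -1.11 (SE 0.31, edgeR adjusted p = 0.159) and Ms4a6c at -0.50 (SE 0.26, edgeR adjusted p = 0.392), and within type 1 cells Ms4a6c was at -1.13 (SE 0.24, edgeR adjusted p = 0.0787).

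**Figure D4:**
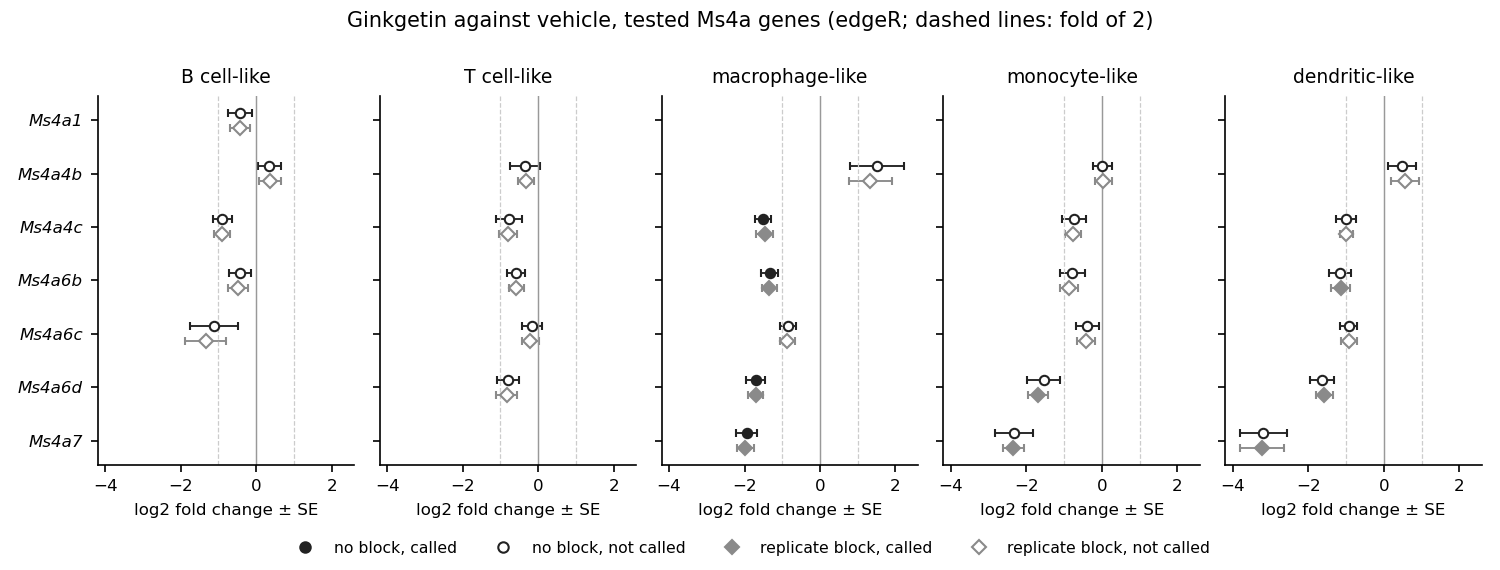
Log2 fold change, ginkgetin against vehicle (horizontal axes, bars ± SE), of the Ms4a genes tested in 5 cell classes, from edgeR without (circles) and with (diamonds) a replicate block. Filled symbols are called, which without the block are found only in macrophage-like cells, and with it also for Ms4a6d and Ms4a7 in monocyte-like and dendritic-like cells and Ms4a6b in dendritic-like cells. In dendritic-like cells Ms4a7 was under the 20 CPM set for a comparison.

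The effect of ginkgetin on a member was also compared between pairs of classes, as 17 differences of log2 effects with limma, adjusted over all genes. None passed, where 2.71% of all genes passed between macrophage-like and monocyte-like, 4.83% between macrophage-like and dendritic-like, 0.0938% between monocyte-like and dendritic-like and 0.0906% between B and T cell-like cells. The lowest limma adjusted p was 0.263, or 0.17 with the replicate block. Of these, 3 had an unadjusted p under 0.05, and the smallest was that of Ms4a6c, whose effect was 0.50 higher in monocyte-like than in dendritic-like cells (SE 0.16, limma adjusted p = 0.414). For Ms4a4c the effect was lower in macrophage-like than in monocyte-like cells by a log2 difference of -0.82 (SE 0.38, limma adjusted p = 0.27), and for Ms4a7 the difference between these classes was 0.38 (SE 0.37, limma adjusted p = 0.6). More members were called in macrophages, but no member's effect there passed as different from that in monocyte-like or dendritic-like cells.

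In B cell-like cells Ms4a1 was at 1119, 886 and 956 CPM with vehicle and at 695, 561 and 1129 CPM with ginkgetin. Replicates 1 and 2 of ginkgetin were the lowest of the 6 and replicate 3 the highest, so the groups overlapped, and the log2 fold change was -0.43 (SE 0.31, edgeR adjusted p = 0.547). Replicates 1 and 2 alone gave a log2 ratio of mean CPM of -0.67 and replicate 3 one of 0.24. In this class 0% of 6826 genes were called by edgeR, 910 had an unadjusted p under 0.05 and DESeq2 called 22.

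Ms4a4c in B cells was at 197, 168 and 217 CPM with vehicle and at 78.2, 88.2 and 177 CPM with ginkgetin. Replicate 3 of ginkgetin reached just above the lowest vehicle library. The log2 fold change was -0.89 (SE 0.24, edgeR adjusted p = 0.267), and with the replicate block -0.90 (edgeR adjusted p = 0.0398), under the fold of 2 in both. Ms4a6b did not overlap, with 33.9 to 36.5 CPM against 21.7 to 31.8 CPM, as 14.3% of all genes tested did not, and its log2 fold change of -0.43 (SE 0.30) had an edgeR adjusted p of 0.542. Macrophage markers summed to 212 to 225 CPM in the vehicle and 64.9 to 126 CPM in the ginkgetin B cell-like sums, and endothelial markers to 126 to 157 and 263 to 1056 CPM, and their part was not tested.

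In T cell-like cells 0% of 8717 genes were called by edgeR, with 893 at an unadjusted p under 0.05 and 72 called by DESeq2. Ms4a4b was at 541, 494 and 1228 CPM with vehicle and at 421, 404 and 1063 CPM with ginkgetin, a log2 change, -0.35 (SE 0.41, edgeR adjusted p = 0.808), which turned to 0.11 without vehicle replicate 3. Ms4a6b was at 448, 427 and 571 CPM and at 281, 281 and 447 CPM, with replicates 1 and 2 of ginkgetin below all other libraries (-0.58, SE 0.23, edgeR adjusted p = 0.457). Ms4a6d was low, at 21.9, 12.6 and 20.4 CPM and at 11.5, 11.2 and 10.3 CPM, without overlap, as 14.6% of all genes tested (-0.80, SE 0.30, edgeR adjusted p = 0.437). Without the cluster led by Klra9, an alternative chosen after seeing the data, Ms4a4b was at -0.35 (SE 0.39, edgeR adjusted p = 0.796) and Ms4a6b at -0.60 (SE 0.23, edgeR adjusted p = 0.441). Macrophage markers went from 177 to 249 CPM to between 45.0 and 113 CPM in these sums, and endothelial markers from 67.6 to 94.0 CPM to between 194 and 880 CPM, with a part that was not tested. In NK cell-like cells, which were not fitted, Ms4a6b was at 117, 130 and 138 CPM with vehicle and at 89.5, 86.6 and 78.8 CPM with ginkgetin.

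Shares of cells with at least 1 UMI were compared after thinning each cell to 1000 UMIs, since the groups differed in depth. Among macrophage-like cells, those with Ms4a7 made up 29.2, 31.4 and 39.2% in the vehicle libraries and 7.84, 10.6 and 8.33% in the ginkgetin libraries. The means were 33.3 ± 5.24% and 8.92 ± 1.45% (SD, n = 3), a difference of -24.4 percentage points, and unthinned they were 80.05% and 21.4%. Thinning left out 2 vehicle and 58 ginkgetin cells. Endothelial-like cells, which should lack Ms4a7, had it in 0.571% and 0.0596% of cells, at a median depth of 2839 and 2599.5 UMIs, so the share in macrophages was far above that background.

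Ms4a6d was detected in 18.0 ± 3.03% (vehicle) and 7.82 ± 2.21% (ginkgetin) of macrophage-like cells, and in 20.5 ± 4.89% and 6.71 ± 3.14% of monocyte-like cells (SD, n = 3). Ms4a6c was found in 57.1 ± 7.94% and 49.0 ± 6.49% of monocyte-like and in 28.2 ± 0.395% and 17.8 ± 2.77% of dendritic-like cells. In B cells Ms4a1 was found in 64.3, 53.4 and 57.7% of vehicle and 45.1, 37.5 and 60.2% of ginkgetin cells, and Ms4a4c in 21.2, 17.4 and 19.6% against 5.71, 7.60 and 14.3%. Ms4a4c in B cells was thus separated by share, while its CPM overlapped.

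Each share that was lower in all 3 ginkgetin libraries had p = 0.10 in a two-sided exact permutation test, the smallest that 3 against 3 libraries allow, so that none could pass 0.05. Their adjusted p over the 24 exact tests was 0.171, and how many of all genes would be lower by this measure was not computed. Ms4a4b in T cell-like cells overlapped between the groups, with 37.6, 33.2 and 62.2% against 32.9, 32.1 and 61.4% of cells, although within each same-numbered pair it was lower with ginkgetin, by share and by CPM.

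**Figure D5:**
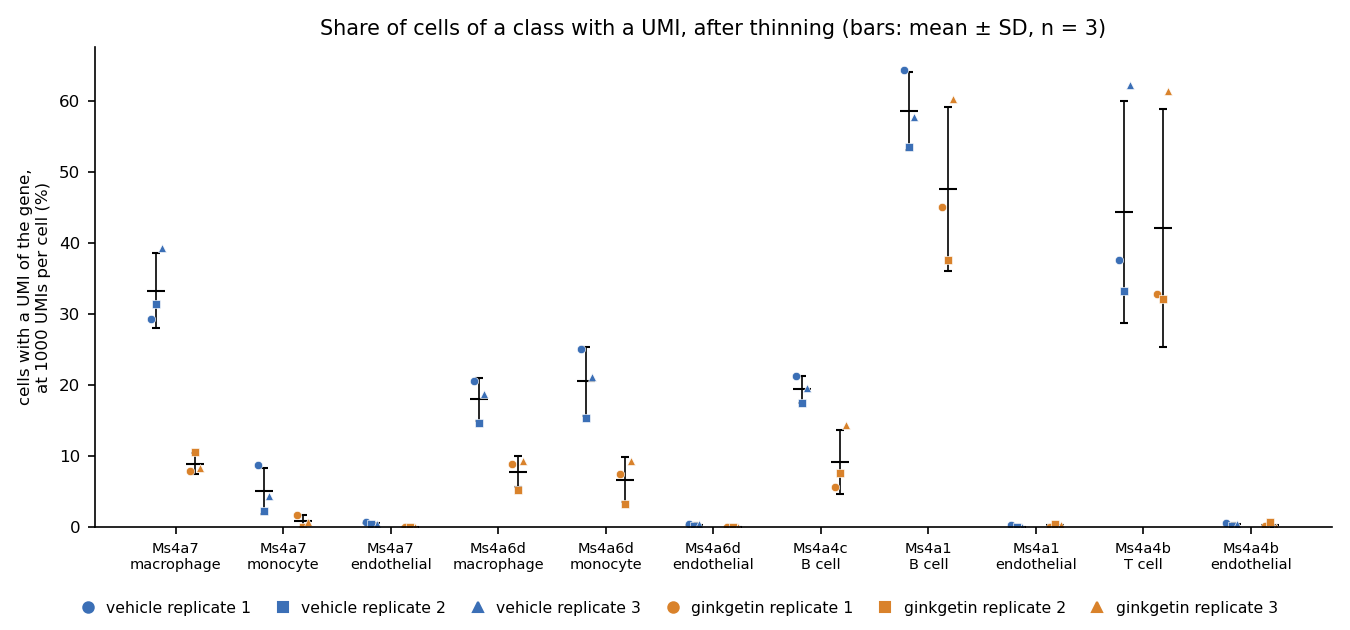
Percentage of cells of a class with a UMI of the named gene after thinning to 1000 UMIs per cell (vertical axis, linear), with 1 point per library and bars for mean ± SD of 3 libraries, and endothelial-like cells as background. Ms4a7 in macrophages separates the groups, Ms4a4b in T cells separates replicate 3 from the other libraries, and endothelial-like cells lie near 0.

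Added over all kept cells, the whole family had 1107, 951 and 1228 CPM in vehicle and 477, 342 and 560 CPM in ginkgetin libraries. There 6 of the 8 members were called lower, where 13.6% of 13981 genes were called and 6.72% called lower. Ms4a7 was at 166, 155 and 242 CPM and at 7.99, 5.65 and 14.3 CPM (-4.69, SE 0.33, edgeR adjusted p = 0.00147), Ms4a6d at 102 to 139 CPM and 7.14 to 16.0 CPM (-3.60, SE 0.36, edgeR adjusted p = 0.0019) and Ms4a6c at 317 to 394 CPM and 59.7 to 90.5 CPM (-2.42, SE 0.24, edgeR adjusted p = 0.00198). In such a sum, fewer cells of a type and less RNA per cell cannot be told apart, and macrophage-like cells made up 22.7 ± 3.49% of vehicle and 7.19 ± 6.85% of ginkgetin cells (SD, n = 3), monocyte-like cells 14.6 ± 0.954% and 3.36 ± 0.207%.

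The lymphoid members did not fall in that sum. Ms4a1 was at 25.9 to 37.7 CPM with vehicle and 43.2 to 73.8 CPM with ginkgetin (0.58, SE 0.23, edgeR adjusted p = 0.114), beside 6.50 ± 1.37% and 11.7 ± 3.59% of B cell-like cells, and Ms4a4b at 89.2 to 137 CPM and 93.3 to 226 CPM (0.15, SE 0.29, edgeR adjusted p = 0.756). Within classes, the summed family was at 1272 ± 104 CPM in vehicle and 687 ± 28.5 CPM in ginkgetin macrophage-like cells, and at 2167 ± 375 and 1434 ± 383 CPM in monocyte-like cells, the class with the highest sum in both groups.

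Genes that work with the members were read from short lists. Of 12 further MS4A-domain genes, 6 had a row, and none of the 2 to 4 tested in a class was called. Among them Ms4a8a in macrophage-like cells was at 41.3, 33.2 and 14.8 CPM with vehicle and 62.3, 59.0 and 108 CPM with ginkgetin, without overlap, as 42.3% of all genes in this class, but its log2 change, 0.88 (SE 0.40, edgeR adjusted p = 0.159), did not pass.

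Of the 7 Trem2 and dectin-1 genes linked to Ms4a4a, Clec7a, the gene of dectin-1 itself, had no row, and 6 were tested in macrophage-like cells. Trem2, a lipid receptor of macrophages, fell from 968, 1239 and 1299 CPM to 105, 116 and 112 CPM (-3.87, SE 0.26, edgeR adjusted p = 0.001545). Mrc1, the mannose receptor, rose from 238, 221 and 266 CPM to 709, 700 and 1281 CPM (1.40, SE 0.25, edgeR adjusted p = 0.00873). All 8 endothelial markers were called higher in these sums too, and their part in the rise of Mrc1 was not tested. The signalling adaptor Tyrobp (-0.95, edgeR adjusted p = 0.169) did not pass. Trem2 is also one of the markers that separate the lipid-associated-like clusters. Of the 12 genes of the B cell receptor and its co-receptors, all 12 were tested in B cell-like cells and none was called. In macrophage-like cells Cd79a, a chain of the B cell receptor, was at 3.68, 2.74 and 3.55 CPM with vehicle and at 0, 38.1 and 22.4 CPM with ginkgetin. These groups overlapped, though the gene was called higher (2.23, SE 0.59, edgeR adjusted p = 0.0341). Cd79a is also 1 of the 7 B cell markers, 5 of which were called higher in these sums, and their part was not tested. The adaptor Blnk fell in the same cells (-1.85, SE 0.23, edgeR adjusted p = 0.004). Of the 4 partners of Ms4a2 none was called in any of the 5 classes, and Fcer1a, the IgE-binding chain, was at 0 in all 6 libraries of B cell-like, T cell-like and dendritic-like cells and in all but vehicle replicate 1 of the other classes. Of 6 T cell costimulation genes linked to Ms4a4b, all 6 were tested in T cell-like cells and none was called, and in macrophage-like cells, where 6.83% of all genes were called higher, Icos and Cd3e of the 3 tested rose. T cell markers in these sums were at 3.32 to 9.78 CPM with vehicle and 17.1 to 60.0 CPM with ginkgetin, and their part was not tested.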

How the data were processed

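Non-parenchymal liver cells of 6 libraries, 3 vehicle and 3 ginkgetin, were counted with the 10x Genomics system; the labels also name another library kit. The authors deposited a table per library with UMI counts for each gene and barcode, without normalisation. The submitters' processing notes name GRCm38 and mm10; aligner and counter are not given in the sources used here. Groups and replicate numbers came from the sample titles. The study states a filter of 250 to 5000 UMIs per cell and under 5% mitochondrial. Here 250 to 5000 was applied to genes per cell instead, a departure from the stated unit; applied to UMIs it kept 16821 barcodes and was an alternative, under which 353 and not 1329 genes, and the same 4 Ms4a genes, were called in macrophage-like cells. Scanpy 1.11.5 (2000 variable genes, 30 components, 15 neighbours, Leiden resolution 1) gave clusters, named from markers; no doublets were removed, and Scrublet called 0.0286 to 0.192% of cells. Sums of at least 10 cells were tested with edgeR 4.0.16 (TMM, filterByExpr, quasi-likelihood, Benjamini-Hochberg over all genes) in R 4.3.3, class differences with limma 3.58.1, and DESeq2 1.42.0 was an alternative; edgeR and limma steps were tested on simulated data.

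Same-numbered libraries deviated together in all 5 classes (15 correlations of deviations from the group mean, 0.183 to 0.624), although replicates 1 and 2 correlated across numbers about as well (0.0917 to 0.293) and replicate 3 stood apart (-0.490 to -0.187 with the others), so the numbers separate replicate 3 more than 1 from 2. Fits with a replicate block are given where they change a call. The study gives 3 per group but does not state that each library is 1 mouse, so p-values measure the spread between libraries. The number of UMIs in a class sum limits the precision of low levels. The members and gene lists were chosen with earlier results of these data known. A member was compared where a group's mean reached 20 CPM. For each member the 3 genes most like it were sought over genes with a mean of at least 10 CPM over the sums, and not all of them are named. An item of the B cell receptor list is not reported here. Alternatives were other scalings, filters, cell definitions, blocks and each library left out.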

Additional observations from a re-analysis of the deposited data

How the results depend on the processing

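In macrophage-like cells 1329 genes and 4 Ms4a genes were called. The counts were 353 genes with the cell filter in UMIs, the study's unit, 846 genes and 2 Ms4a genes with cells named one by one (Ms4a6b and Ms4a4c lost), 136 and 0 in lipid-associated-like clusters alone, 1522 and 5 with no filter on genes, and 2189 and 2 with library totals only. Leaving out 1 library gave 536 (without vehicle replicate 2) to 1672 genes (without vehicle replicate 3), with 683 without vehicle replicate 1 and 613 without ginkgetin replicate 3, and 4 to 5 Ms4a genes, the fifth being Ms4a1, called higher with ginkgetin without vehicle replicate 3 (2.64) or ginkgetin replicate 1 (3.19), on 39 vehicle and 36 ginkgetin UMIs. In monocyte-like cells 2 genes and 0 Ms4a genes were called, against 137 and 2 with DESeq2, 173 and 2 with no filter on genes, 210 and 1 with a block for the barcode set, 148 and 1 with no cell filter, 13 and 1 with cells named one by one, and 0 genes with replicates 1 and 2 alone, the filter in UMIs, library totals only or any library left out. In dendritic-like cells 0 were called, against 120 genes and 2 Ms4a genes with DESeq2, 275 and 5 with no filter on genes, 325 and 4 with the barcode set block, 114 genes with replicates 1 and 2 alone, 3 with the filter in UMIs (which left 4 libraries), 29 without the highest doublet scores, 3 in type 1 and 11 in type 2 clusters alone, and 0 to 4 with a library left out. In B cell-like cells 0 were called, against 22 with DESeq2, 178 with no filter on genes, 99 with the barcode set block, 1 with cells named one by one and 0 to 1 with a library left out. In T cell-like cells 0 were called, against 72, 70 and 71 in the first 3 of these, 2 with library totals only and 0 to 1 with a library left out. The causes were not tested.

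With the replicate number as a block, 140 genes were called in B and 92 in T cell-like cells, 246 genes and 2 Ms4a genes in monocyte-like and 294 genes and 3 Ms4a genes in dendritic-like cells, and 1630 genes with 4 Ms4a genes in macrophage-like cells. Of the 3 in dendritic-like cells, Ms4a7 was under the 20 CPM set for a comparison. Among the members' other calls the block changed none.

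Small changes turned sign. Ms4a6c in T cell-like cells was 0.021 with replicates 1 and 2 alone and -0.34 to 0.060 with a library left out, and Ms4a4b there -0.74 to 0.11. Ms4a4b in monocyte-like cells was -0.10 with no filter on genes, -0.0010 with the barcode set block, -0.024 with no cell filter, -0.037 without the highest doublet scores, -0.015 in classical monocyte-like clusters and -0.079 to 0.15 with a library left out. Ms4a6c in dendritic-like cells was 0.47 with the filter in UMIs. Without thinning, the difference in share in T cell-like cells was 1.17 percentage points for Ms4a4b and -0.15 for Ms4a6c, and with a library left out that of Ms4a4b was -11.9 to 6.70 in T cell-like and -0.77 to 0.62 in monocyte-like cells. With a library left out, the class with the highest level was the same for 8 of 8 genes, and 0 class differences passed with or without the block. Alternatives for sub-classes, single library totals and level order were chosen after seeing the data.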
